A study of Mus musculus with 7 samples.

Results

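Taar2, Taar3, Taar4, Taar5 and Taar6 are neighbouring mouse genes that each encode a trace amine-associated receptor, and they were taken by symbol from tables of gene counts and of TPM (transcripts per 1000000). They are 5 of the 50600 genes counted, and all 5 passed the filter on low counts in every comparison. Whole olfactory epithelium, which lines the nasal cavity and holds the odour-sensing neurons, had been dissected from mice at postnatal day 7, and its polyadenylated RNA was sequenced in 7 libraries. The neo group (Amigo1neo/neo, 3 libraries) carries a neomycin cassette in place of the coding region of Amigo1, the KO group (Amigo1-/-, 3 libraries) is labelled a knock-out with no cassette named, and the WT group (Amigo1+/+) is 1 library. Amigo1 encodes a neuronal cell adhesion protein. The labels give no strain, and they do not say that each library is its own animal, so each p-value reflects the spread among the libraries sequenced, part of which may be technical.

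Trace amine-associated receptors are G protein-coupled receptors. Members other than Taar1 are odorant receptors, many of them for volatile amines, and each is found in a small population of olfactory sensory neurons, most of which express a single receptor gene and lie in the dorsal part of the epithelium. In mice, Taar5 responds to trimethylamine, Taar4 to beta-phenylethylamine and Taar3 to isoamylamine.

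Amigo1 had 11, 5 and 1 counts in neo, 0, 8 and 16 counts in KO and 744 counts in the WT library. Gene counts totalled 14879415 to 21343058 per library, of which the single gene Gm42418 took 9.83 to 16.5%. Neo replicate 1 and the WT library had 1145 and 644 CPM of Xist (CPM, counts per 1000000 counts after TMM scaling), the X-inactivation transcript, and at most 0.0460 CPM of the Y-linked gene Ddx3y, whereas in the other 5 libraries Xist did not exceed 4.18 CPM and Ddx3y reached 60.7 CPM or more. KO and WT share a number and a code in their sample names, and neo samples carry others. No label says what these stand for, and they cannot be told apart from the neo genotype. Omp, the olfactory marker protein of mature sensory neurons, stood at 784 to 1163 CPM in all libraries. Of 6 markers of vomeronasal neurons, the channel gene Trpc2 had 0 counts in every library and the receptor gene Vmn2r1 reached 3.86 CPM. All 6 summed to 491 to 520 CPM in neo, 473 to 513 CPM in KO and 508 CPM in WT. Most of each sum came from Gnao1, with means of 274 CPM in neo and 269 CPM in KO and 292 CPM in WT. The sums therefore do not measure how many vomeronasal neurons were present.

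The genes lie on chromosome 10 (GRCm38) within 47.1 kb of the 189 kb Taar cluster, separated by gaps of 7.97 to 12.9 kb. Taar2 (ENSMUSG00000059763.4, 23938572 to 23941583, plus strand) has 2 exons of 24 and 996 bases around an intron of 1992 bases. The others have 1 exon. These are Taar3 (ENSMUSG00000069708.3, 23949558 to 23950589, plus strand), Taar4 (ENSMUSG00000069707.1, 23960494 to 23961537, plus strand), Taar5 (ENSMUSG00000069706.3, 23970706 to 23971719, plus strand) and Taar6 (ENSMUSG00000045111.5, 23984609 to 23985646, minus strand). Their annotated transcripts span only the coding sequence, with lengths of 1014 to 1044 bases, so reads from untranslated ends would not have been counted by this annotation.

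Whether reads of these genes can be told from those of other receptors was read from the annotated transcripts. Between pairs of the 5 genes, aligned coding sequences were 50.2 to 65.0% identical, and the longest run shared by any pair was 17 bases. Every 50-base word of Taar2, Taar3, Taar4 and Taar5 was absent from all other genes' transcripts, and Taar6 shared 1 of its 989 words, with Taar8a. At 100 bases all words of the 5 genes were unique. The relatives Taar7a, Taar7b, Taar7d, Taar7e and Taar7f, in the same cluster, were 91.7 to 95.4% identical to each other, with shared runs of 102 to 256 bases, and 46.1% (Taar7e) to 70.5% (Taar7d) of their 50-base words were unique. The 60-base stretch in which the 5 genes are most alike is printed below to show how far they differ even there, 5′ to 3′ on the coding strand, with capitals for the 33 bases that are the same in all 5. Within it, pairs differed at 11 (Taar2 and Taar4, Taar3 and Taar4) to 21 bases (Taar5 and Taar6).
Taar2, chr10:23940736-23940795, plus strand: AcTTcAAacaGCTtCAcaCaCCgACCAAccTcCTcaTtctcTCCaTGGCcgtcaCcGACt
Taar3, chr10:23949730-23949789, plus strand: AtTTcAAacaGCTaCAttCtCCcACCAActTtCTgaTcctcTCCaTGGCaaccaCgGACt
Taar4, chr10:23960672-23960731, plus strand: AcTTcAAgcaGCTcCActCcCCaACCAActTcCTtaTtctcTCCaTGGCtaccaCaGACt
Taar5, chr10:23970887-23970946, plus strand: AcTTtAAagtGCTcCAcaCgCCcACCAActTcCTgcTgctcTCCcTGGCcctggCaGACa
Taar6, chr10:23985412-23985471, minus strand: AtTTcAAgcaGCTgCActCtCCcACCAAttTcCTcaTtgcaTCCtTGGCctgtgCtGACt

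Taar6 was the most abundant of the 5 receptors in every library. By deposited TPM, a level per transcript length, Taar6 averaged 4.29 ± 1.23 TPM over the 7 libraries (SD, n = 7 here and for the next 4 levels), ahead of Taar2 at 1.85 ± 0.968, Taar4 at 1.5 ± 0.388, Taar5 at 1.03 ± 0.358 and Taar3 at 0.681 ± 0.159 TPM. Counts per kilobase of transcript gave the same order. Taar6 exceeded Taar2 by 2.44 ± 0.884 TPM within libraries, more than the spread of that difference, and it was above each of the other 4 genes in 7 of 7 libraries. Taar2 and Taar4 did not differ beyond their spread, with a difference of 0.353 ± 1.03 TPM and Taar2 higher in 4 of 7 libraries. Taar4 was above Taar5 in 6 of 7 libraries by 0.471 ± 0.397 TPM. Taar5 was above Taar3 in 6 of 7 libraries too, by 0.347 ± 0.374 TPM, a difference within its spread.

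The odorant receptor (Olfr) genes give a scale for these levels. The median of the mean TPM over 1110 Olfr genes without a pseudogene suffix was 1.53, with quartiles of 0.883 and 2.41. Taar6 stood above 93.2% of them and Taar2 above 61%. Taar4 was near the middle, above 49.4%, while Taar5 was above 32.0% and Taar3 above 16.8%. These positions rest on means over all 7 libraries. Within groups, Taar2 averaged 2.6 TPM in neo and 1.15 TPM in KO, and Taar4 1.78 TPM in neo and 1.41 TPM in KO. The Olfr median was not computed within groups, so no position among Olfr genes is given by group. In bulk tissue, fewer cells that express a receptor and less of its RNA per cell cannot be told apart.

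**Figure D1:**
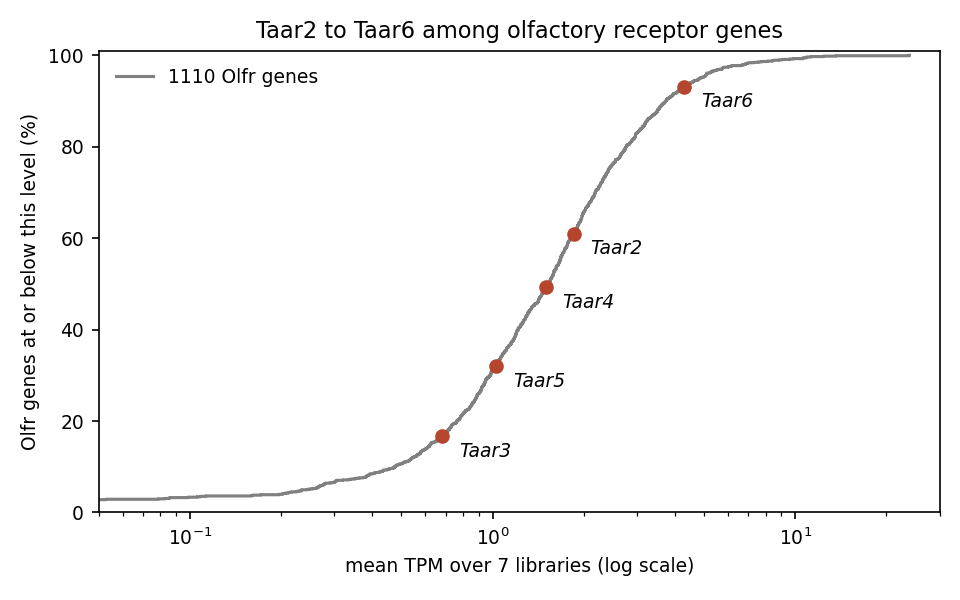
Mean TPM over 7 libraries (horizontal axis, log scale) against the share of 1110 Olfr genes at or below that level (vertical axis, percent); the line is the Olfr genes and the points are the 5 Taar genes. Taar6, at 4.29 TPM, stands above 93.2% of Olfr genes and Taar3, at 0.681 TPM, above 16.8%.

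The comparison of neo with KO sets 2 Amigo1-deficient genotypes against each other, of which the labels name a cassette in neo alone. None of the 5 receptor genes passed the test across all genes. The fitted difference was positive for Taar2, Taar4, Taar5 and Taar6 and negative for Taar3, and for Taar2 and Taar6 all 3 neo libraries lay above all 3 KO libraries in CPM. Of the 17638 genes tested with edgeR's quasi-likelihood test, 0.017% passed an adjusted p of 0.05, 9.32% had an unadjusted p under 0.05 (4.59% with neo higher), and 7.59% had all 3 neo libraries above all 3 KO libraries. Among the 5 genes, 0 passed, 1 (Taar6) had an unadjusted p under 0.05, and 2 were higher without overlap. None lay lower without overlap, as 7.98% of genes did, and 15.6% of genes had no overlap in either direction.

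Taar5, the trimethylamine receptor, had 20, 16 and 15 counts in neo replicates 1 to 3, 15, 7 and 11 counts in KO replicates 1 to 3 and 17 counts in WT. In CPM these were 0.852, 0.957 and 0.998 in neo, 0.919, 0.375 and 0.608 in KO and 0.782 in WT. The neo libraries lay closer together than counting error alone gives, with a coefficient of variation of 8.05% against 24.3% from counting. In KO it was 43.0% against 30.2%. KO replicate 1 fell among the neo libraries, and KO replicates 2 and 3 were the lowest of the 7. The fitted log2 difference between neo and KO was 0.56 (SE 0.39, 95% interval -0.31 to 1.44, adjusted p = 0.694, edgeR).

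Taar4, the beta-phenylethylamine receptor, had 30, 30 and 17 counts in neo, 22, 20 and 17 counts in KO and 15 counts in WT. Levels were 1.28, 1.79 and 1.13 CPM in neo, 1.35, 1.07 and 0.940 CPM in KO and 0.690 CPM in WT. The neo and KO ranges overlapped, and the WT library was the lowest of the 7. Neo differed from KO by 0.33 on the log2 scale (SE 0.31, 95% interval -0.38 to 1.03, adjusted p = 0.792, edgeR).

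Taar3, the isoamylamine receptor, was the scarcest member, with 9 counts in each neo library, 11, 13 and 8 counts in KO and 10 counts in WT. Its levels were 0.383, 0.538 and 0.599 CPM in neo, 0.674, 0.697 and 0.442 CPM in KO and 0.460 CPM in WT. KO replicates 1 and 2 were the highest, and KO replicate 3 lay among the neo libraries. The log2 difference of neo from KO was -0.27 (SE 0.40, 95% interval -1.17 to 0.62, adjusted p = 0.875, edgeR). The comparison rests on 27 counts in neo and 32 in KO.

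Taar6 had the most reads, with 100, 54 and 60 counts in neo, 46, 48 and 50 counts in KO and 86 counts in WT. This gave 4.26, 3.23 and 3.99 CPM in neo, 2.82, 2.57 and 2.76 CPM in KO and 3.96 CPM in WT. All neo libraries were above all KO libraries, the KO libraries lay close together, and WT lay within the neo range. Neo was higher than KO by 0.50 on the log2 scale (SE 0.21, 95% interval 0.01 to 0.98, unadjusted p = 0.0461, adjusted p = 0.531, edgeR), which did not pass across all genes.

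Taar2 had 35, 26 and 40 counts in neo, 20, 12 and 24 counts in KO and 27 counts in WT. In CPM, neo stood at 1.49, 1.55 and 2.66, KO at 1.23, 0.643 and 1.33 and WT at 1.24. Neo replicate 3 was the highest and KO replicate 2 the lowest of the 7, the neo and KO ranges did not overlap, and WT lay within the KO range. The log2 difference of 0.82 was the largest of the 5 but also had a wide interval (SE 0.37, 95% interval -0.02 to 1.67, unadjusted p = 0.0551, adjusted p = 0.539, edgeR).

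**Figure D2:**
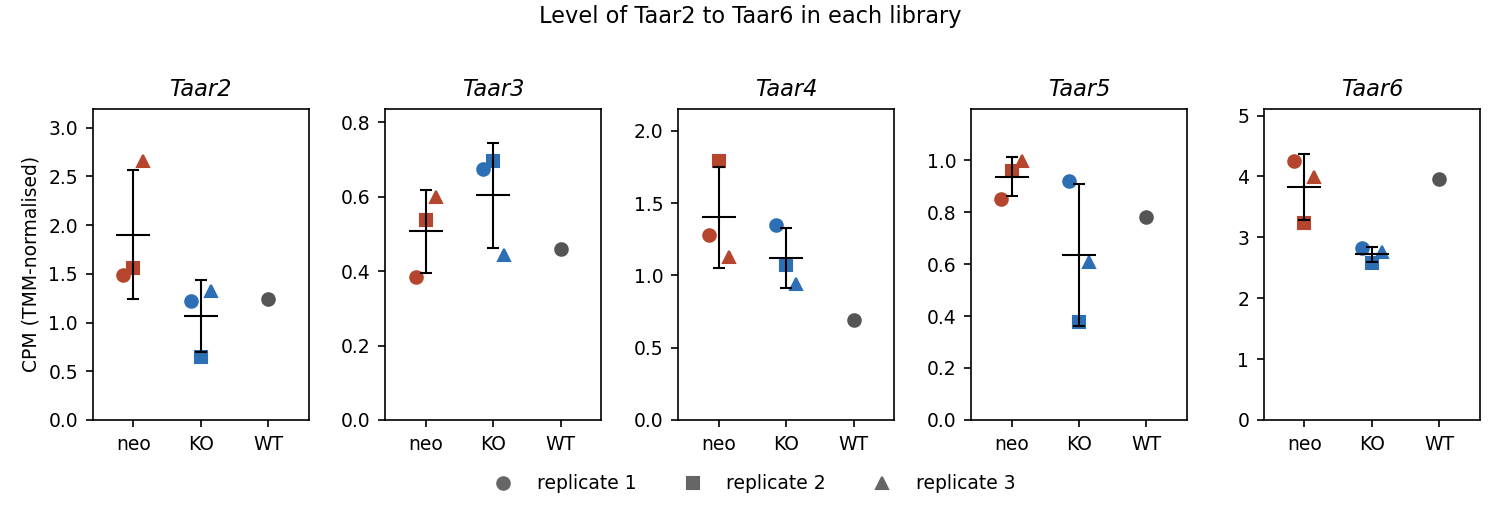
CPM after TMM scaling (vertical axes, 1 panel per gene, each from 0) for the neo, KO and WT libraries; symbols are replicates and bars the mean and SD of 3 libraries (WT has 1). The neo points of Taar2 and Taar6 all lie above the KO points, whereas those of Taar3, Taar4 and Taar5 overlap with KO.

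Over the 5 genes the median log2 difference of neo from KO was 0.50, beside -0.00221 over all genes tested and 0.25 over 1040 Olfr genes, of which 758 were positive. Most Olfr genes were therefore on the same side as 4 of the 5 Taar genes. Pooled over libraries, with exact 95% intervals for counting error only, the ratio of neo to KO was 1.73 for Taar2 (1.24 to 2.45), 1.43 for Taar6 (1.15 to 1.78), 1.48 for Taar5 (0.940 to 2.37), 1.25 for Taar4 (0.882 to 1.79) and 0.811 for Taar3 (0.467 to 1.40). For Taar2 the spread between replicates was wider than counting alone gives, with a coefficient of variation of 34.6% in neo and 34.6% in KO against 17.2% and 23.1% from counting. For Taar6 it was 14.0% in neo and 4.72% in KO against 11.8% and 14.4% from counting.

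The authors' deposited table gives the same contrast the other way round, as KO over neo. In the authors' deposited table the log2 changes of KO over neo were -0.83 for Taar2 (adjusted p = 0.803), 0.27 for Taar3 (adjusted p = 0.999), -0.32 for Taar4 (adjusted p = 0.999), -0.56 for Taar5 (adjusted p = 0.999) and -0.50 for Taar6 (adjusted p = 0.825, all from DESeq2). None of the 5 passed there, where the authors' deposited table has 0.429% of 18429 genes past an adjusted p of 0.05.

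**Figure D3:**
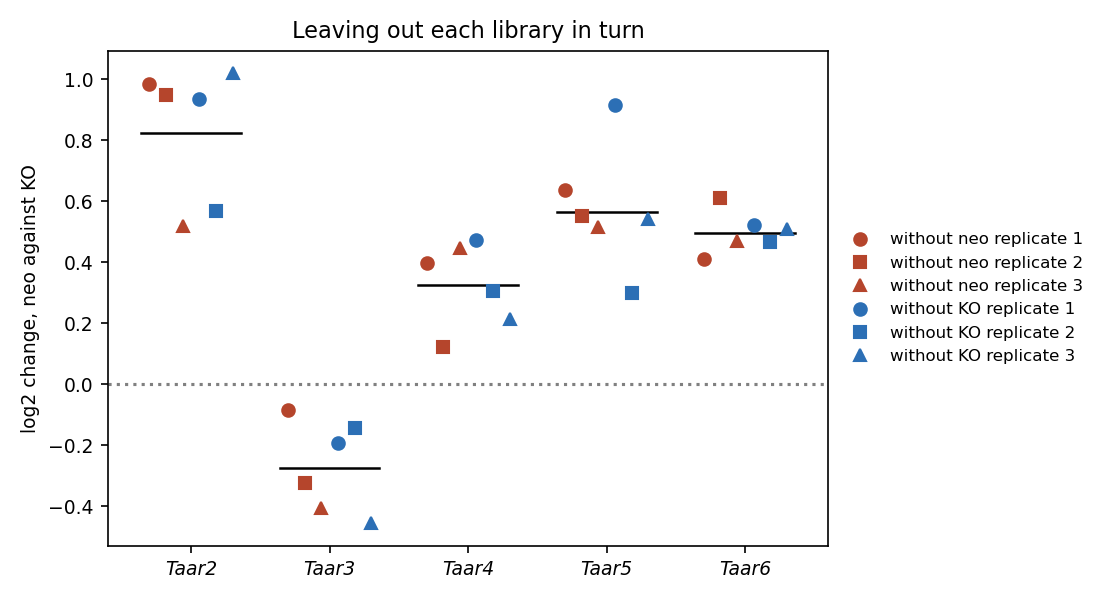
Log2 difference of neo from KO (vertical axis) for each gene when 1 library is left out; red symbols leave out a neo library, blue symbols a KO library, and black lines are the values with all 6. Without neo replicate 3 the Taar2 value is 0.52 in place of 0.82, and without KO replicate 2 the Taar5 value is 0.30 in place of 0.56.

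Single libraries moved the values but not their signs. Leaving out each library in turn gave 0.52 to 1.02 for Taar2, -0.45 to -0.08 for Taar3, 0.12 to 0.47 for Taar4, 0.30 to 0.92 for Taar5 and 0.41 to 0.61 for Taar6. The low end for Taar2 came without neo replicate 3, and Taar5 gave 0.30 without KO replicate 2 and 0.92 without KO replicate 1. Without neo replicate 1, which leaves 5 libraries that all have high Ddx3y, the values were 0.98 for Taar2, -0.08 for Taar3, 0.40 for Taar4, 0.64 for Taar5 and 0.41 for Taar6, again with none past the adjusted threshold.

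Summed levels of mature neuron and bone markers differed between neo and KO without overlap, though no gene of either list passed the test. They were not alone in this. Odorant transduction genes summed to 3878 to 4111 CPM in neo and 3556 to 3864 CPM in KO. Globose basal and precursor markers summed to 481 to 545 CPM in neo and 382 to 462 CPM in KO. Dorsal zone markers, given below, did not overlap either, and the sums of the remaining lists did. The summed level of 16 markers of mature olfactory neurons was 5808 to 6670 CPM in neo, 5340 to 5653 CPM in KO and 6073 CPM in WT, so neo lay above KO without overlap, and 14 of the 16 had a positive log2 difference (median 0.17, 0 passed). The 10 bone markers ran the other way, at 3274 to 6867 CPM in neo, 9291 to 15054 CPM in KO and 9779 CPM in WT, with 0 of 10 positive (median -1.10, 0 passed). In CPM the 5 receptors summed to 8.07 to 9.38 in neo, 5.36 to 6.98 in KO and 7.13 in WT. These neo and KO sums did not overlap, where 7.59% of genes had every neo library above every KO library. Set against the mature marker counts, the summed reads of the 5 receptors came to 1423, 1210 and 1545 reads per 1000000 of those counts in neo, 1236, 999.8 and 1139 reads per 1000000 in KO and 1174 reads per 1000000 in WT, and the groups overlapped. On that scale neo and KO overlapped for each of the 5 genes, where 1.84% of all genes tested had every neo library above every KO library, and the ratio of neo to KO means was 1.59 for Taar2, 1.31 for Taar5, 1.25 for Taar6, 1.1 for Taar4 and 0.739 for Taar3. Set against all Olfr counts, Taar6 still had no overlap, with 850 to 1024 reads per 1000000 Olfr counts in neo, 714 to 818 in KO and 1025 in WT, whereas Taar2 overlapped, at 344 to 683 in neo, 178 to 393 in KO and 322 in WT. The sum of the 5 receptors did not overlap on the Olfr scale, at 1906 to 2407 in neo, 1487 to 1812 in KO and 1847 in WT. On the Olfr scale 2.24% of genes had every neo library above every KO library. Leaving Gm42418 out of the gene total gave no overlap for Taar2, Taar5 and Taar6, as for 11.5% of genes. The part of these marker differences in the Taar values was not tested beyond this scaling.

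Each gene was also compared as a share of all gene counts, over the 6 libraries, by a two-sided exact permutation test whose smallest possible p is 0.1 (unadjusted over 5 genes). Taar6 averaged 3.93 reads per 1000000 gene counts in neo and 2.65 in KO (exact p = 0.1), and Taar2 averaged 1.93 in neo and 1.04 in KO (exact p = 0.1). The neo and KO shares of Taar5 also did not overlap on this scale, with means of 0.949 in neo and 0.616 in KO (exact p = 0.1), and 9.49% of genes had every neo library above every KO library on it. Taar4 averaged 1.41 in neo and 1.09 in KO (exact p = 0.2), and Taar3 0.511 in neo and 0.592 in KO (exact p = 0.4). The WT library had 1.27 reads per 1000000 for Taar2 (exact 95% interval 0.834 to 1.84) and 4.03 for Taar6 (3.22 to 4.98). With 3 libraries in each group this test cannot reach 0.05.

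The make-up of the summed reads of the 5 receptors was compared by the share of each. Taar6 made up 51.5, 40.0 and 42.6% of the reads of the 5 genes in neo, 40.4, 48.0 and 45.5% in KO and 55.5% in WT (exact 95% interval 47.3 to 63.5%). Its mean share was 44.7% in neo and 44.6% in KO (p = 1, exact permutation test, two-sided, as for the next 4 genes). Taar2 averaged 21.9% in neo and 17.1% in KO (exact p = 0.4), Taar4 16.6% in neo and 18.3% in KO (exact p = 0.7), and Taar5 10.9% in neo and 10.1% in KO (exact p = 0.7). Taar3 was the single member whose shares did not overlap, at 4.64, 6.67 and 6.38% in neo, 9.65, 13.0 and 7.27% in KO and 6.45% in WT (exact p = 0.1, the smallest possible). Its own counts did overlap, at 9 in each neo library and 11, 13 and 8 in KO. The shares of a library depend on each other, since each is set against the sum of all 5 genes. No rate over all genes was computed for such shares. By TPM the Taar3 shares did overlap, with means of 6.08% in neo and 9.64% in KO.

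**Figure D4:**
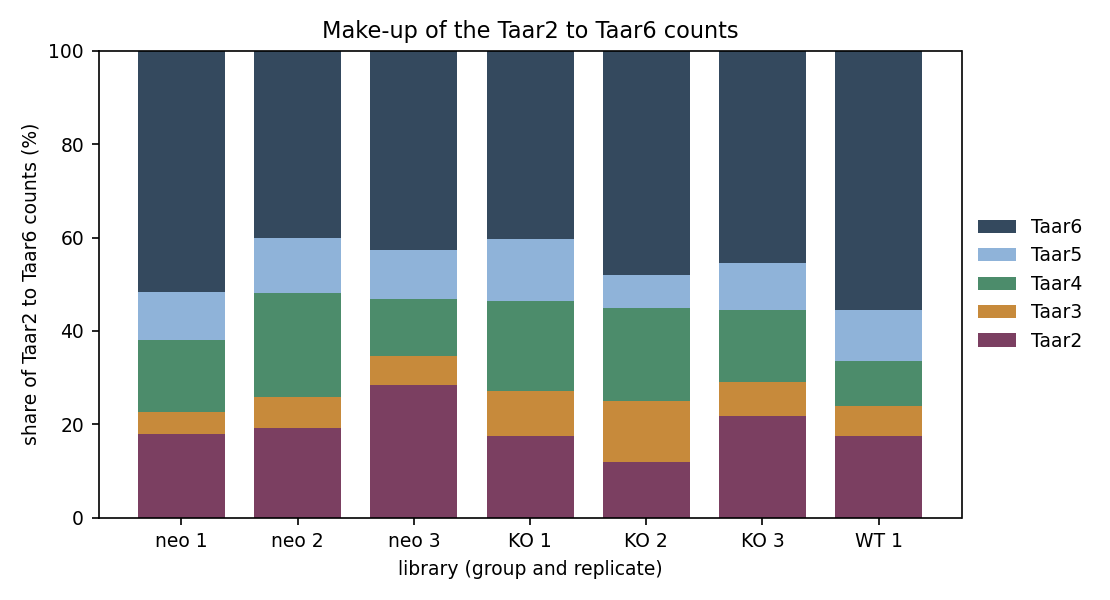
Share of each gene in the summed counts of Taar2 to Taar6 (vertical axis, percent) in each library (horizontal axis, neo, KO and WT). Taar6 is the largest segment in all 7 libraries, from 40.0% in neo replicate 2 to 55.5% in WT.

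Each Amigo1-deficient group was also set beside WT, with a cassette named in the labels for neo alone. The KO libraries and neo replicates 2 and 3 differ from the WT library in Xist and Ddx3y as well. The neo group also differs from WT in the number and code of its sample names. Loss of Amigo1 cannot be told apart from these differences. With a single WT library, these tests borrow the spread of neo and KO, and the WT values enter both comparisons. None of the 5 receptors passed in either, where 0.0105% of 19123 genes passed for neo against WT and 0.00523% for KO against WT (edgeR). At an unadjusted p under 0.05, 0 of the 5 passed in either, beside 2.97% of genes for neo and 0.727% for KO.

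Taar4 was lowest in WT, with all 6 neo and KO libraries above its 0.690 CPM, as for 7.82% of genes. All 3 neo libraries were above WT in 21.8% of genes and all 3 KO libraries in 19.5%. The log2 difference of Taar4 from WT was 1.01 in neo (SE 0.49, 95% interval -0.10 to 2.13, unadjusted p = 0.0697, adjusted p = 1, edgeR) and 0.69 in KO (95% interval -0.42 to 1.80, adjusted p = 1, edgeR). The pooled ratio to WT was 2.02 in neo (counting interval 1.15 to 3.78) and 1.61 in KO (0.903 to 3.06). Its WT value rests on 15 counts.

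Taar6 differed from WT by -0.05 on the log2 scale in neo (95% interval -0.71 to 0.62), where the neo libraries lay on both sides of WT. It lay below WT in 3 of 3 KO libraries, as did 20.9% of genes. The KO difference from WT was -0.54 (SE 0.29, 95% interval -1.20 to 0.12, unadjusted p = 0.0949, adjusted p = 1, edgeR), with a pooled ratio of 0.686 (counting interval 0.522 to 0.907). For Taar2 the log2 differences from WT were 0.60 in neo and -0.22 in KO, for Taar3 0.12 in neo and 0.39 in KO, and for Taar5 0.25 in neo and -0.31 in KO. All 6 of those intervals included 0. The WT library and neo replicate 1 share high Xist, and sex cannot be told apart from genotype in the comparison of KO with WT.

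**Figure D5:**
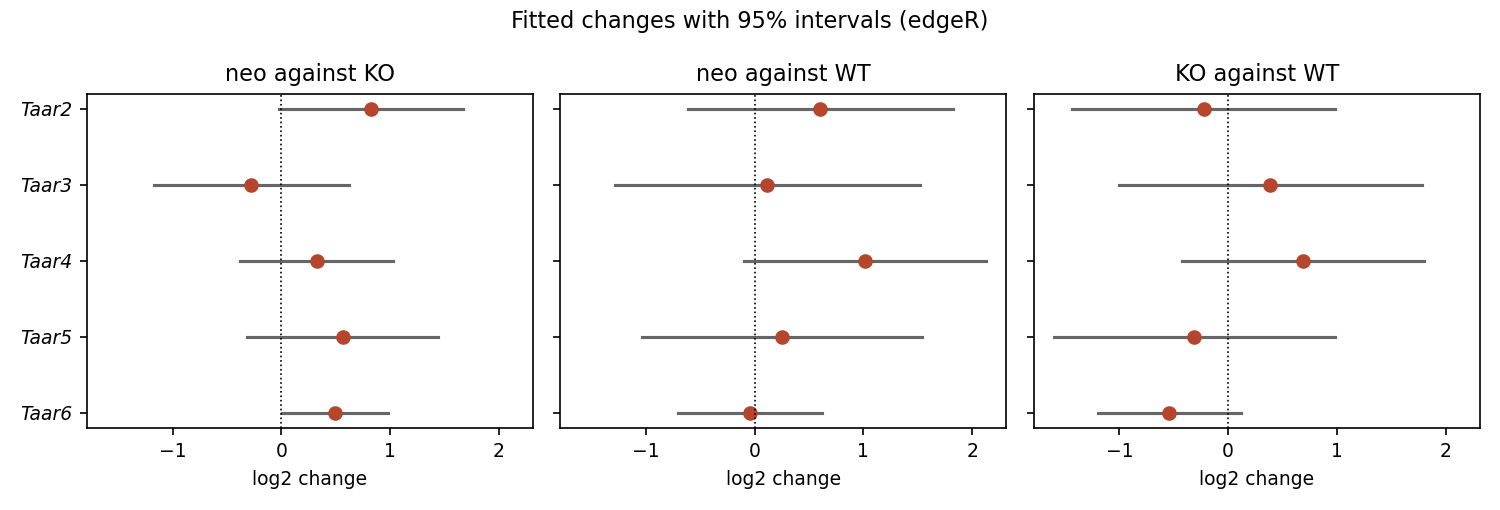
Fitted log2 change (horizontal axes, points) with 95% intervals (lines) for each gene, for neo against KO, neo against WT and KO against WT (edgeR). Only the interval of Taar6 in neo against KO, 0.01 to 0.98, leaves out 0.

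The rest of the receptor cluster and its flanks were read beside the 5 genes. Of 10 other Taar genes, 6 had enough counts to be tested for neo against KO, 0 passed the test and 5 were positive (median 0.34). Taar7a, at 3.33 ± 0.579 CPM in neo and 2.05 ± 0.222 CPM in KO (SD, n = 3 each), differed by 0.70 (adjusted p = 0.498, edgeR) and Taar7d by 0.46 (adjusted p = 0.628, edgeR). Reads that map to several of the near-identical Taar7 genes may be lost from these counts. Taar1, the non-olfactory member, had 0 counts in all 7 libraries, which allows up to 3 counts in each. Taar2 to Taar6 together made up 42.5, 40.7 and 43.7% of all Taar counts in neo, 37.6, 41.5 and 40.6% in KO and 39.5% in WT. The nearest tested genes outside the cluster showed no difference that passed. Vnn1, a pantetheinase gene 15 kb below, differed by -0.04 (adjusted p = 0.987, edgeR), and Stx7, a syntaxin gene 39.8 kb above, by -0.12 (adjusted p = 0.688, edgeR).

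Genes that work with odorant receptors were described by lists, in none of which any gene passed the adjusted threshold for neo against KO. All 14 tested genes of odorant signal transduction were positive (median 0.16), among them Ric8b, which promotes signalling by the olfactory G protein, at 311 ± 8.28 CPM in neo and 255 ± 13.9 CPM in KO (log2 difference 0.29, adjusted p = 0.471, edgeR). Of 6 receptor transport genes 6 were positive (median 0.22), with Rtp1, a chaperone that carries receptors to the surface, at 0.20 (adjusted p = 0.545, edgeR). Ric8b is in this list as well, so the 2 lists are not separate. Regulators of receptor choice were 9 of 16 positive (median 0.03), with Eif2ak3, a kinase of the unfolded protein response, at -0.29 and Ebf4, a transcription factor of olfactory neurons, at 0.39 (adjusted p = 0.498 and 0.502, edgeR). Since most Taar neurons lie dorsally, markers of the zones were read too. Dorsal markers were 3 of 6 positive (median 0.01), with Acsm4 at 0.48 and Nqo1 at 0.44 (adjusted p = 0.487 and 0.498, edgeR), and ventral markers 3 of 6 (median -0.01). Summed dorsal marker levels were 601 to 650 CPM in neo, 451 to 599 CPM in KO and 541 CPM in WT, so neo lay just above KO. Much of each sum came from Acsm4, with means of 261 CPM in neo and 187 CPM in KO, and Nqo1, with 152 and 112 CPM. With 3 of 6 markers positive, the sum does not show that dorsal markers in general were higher in neo.

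Markers of the other cells in the tissue gave positive differences for 2 of 10 immature neuron genes (median -0.09), 9 of 10 sustentacular (0.15), 4 of 5 horizontal basal (0.08), 5 of 7 globose basal and precursor (0.13), 5 of 6 ciliated respiratory (0.07), 4 of 4 tested vomeronasal (0.05), 3 of 6 ensheathing glia (-0.00273), 4 of 5 blood (0.04) and 5 of 7 macrophage genes (0.51). Gap43, a growth cone protein of immature neurons, stood at 261 ± 29.1 CPM in neo and 317 ± 8.82 CPM in KO (log2 difference -0.28, adjusted p = 0.502, edgeR).

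The genes whose profiles over the 7 libraries were most like each receptor were found by the root mean square difference of centred log2 CPM. For Taar6 they were the odorant receptor genes Olfr1250 (0.0828) and Olfr209 (0.0915), for Taar4 Olfr622 (0.107) and Ulbp1 (0.107), and for Taar5 Gm28800 (0.124) and Olfr938 (0.144). For Taar3 they were 2810414N06Rik (0.0893) and Gnai1 (0.0934), and for Taar2 RP24-147D14.3 (0.155) and B230208H11Rik (0.155). The profile of the summed CPM was nearest to E2f8 (0.0521), Olfr872 (0.0534) and Olfr487 (0.0572). Within the 5, Taar2 and Taar5 were the most alike, at 0.282, with 48 other genes closer to Taar2 and 431 closer to Taar5, and Taar2 and Taar3 the least, at 0.630. These are distances over 7 libraries at low counts and carry no test.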

How the data were processed

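Polyadenylated RNA from mouse olfactory epithelium was sequenced from 3 neo, 3 KO and 1 WT libraries, grouped by sample title. Reads counted per gene were deposited by the authors as whole-number counts. Trimmomatic 0.35, STAR 2.5.1b and the build GRCm38 (mm10) are named in the submitters' processing notes, but their roles are not given in the sources used here. By its name, the count table is stranded. Deposited gene TPM values (transcripts per 1000000) are RSEM estimates, per the file headers. The authors' deposited comparison holds log2 changes of KO over neo with p-values, made with DESeq2 1.18.1 per the submitters' processing notes, a standard error used here as a score, and, for every gene in each library, a normalised signal used only to check the direction of that contrast, per the file headers. The 4 summary rows that name no gene were left out of library sizes: unmapped (3.32 to 4.38% of reads), multimapping (14.5 to 19.6%), no feature (14.2 to 17.4%) and ambiguous (0.666 to 0.865%). Reads that map to several places were therefore in no gene row. Gene totals were 14879415 to 21343058 counts, and no library pair agreed within sampling noise.

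The quasi-likelihood test of edgeR 4.0.16, run in R 4.3.3, was applied to the counts with TMM scaling, filterByExpr (minimum count 10, minimum total 15) and two-sided Benjamini-Hochberg adjustment over all genes at 0.05. Neo was set against KO in a fit of those 6 libraries, and comparisons with WT used all 7, with WT assumed to vary like the other groups. Shares were compared by exact permutation tests. Intervals of pooled ratios and of WT shares are exact at 95% (Clopper-Pearson) and cover counting error only, since no molecular identifiers are named. The edgeR, DESeq2 and limma fits were checked on simulated counts. The simulation gave all genes the same dispersion and placed changes only in genes with higher mean counts than Taar3 and Taar5. It therefore does not cover changes in genes as scarce as those. Nor was its dispersion matched to Taar2, whose replicates spread more widely than counting alone gives. Transcripts of GENCODE vM21 gave sequences, which were aligned with MAFFT 7.526. All 5 identifiers matched it with the same coordinates.

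The members and gene lists were chosen with earlier results of these data known. The genes named are the 5 members, the 2 genes most like each and the 3 most like their sum, up to 2 genes per list with the smallest p in the comparison of neo with KO, and the nearest tested gene on each side of the cluster. Xist, Ddx3y, Omp, Trpc2, Vmn2r1, Gm42418 and Taar1 were named after their values were seen. Other settings tried were scaling by RLE, TMM leaving out chemosensory receptor genes, no count filter, DESeq2 1.42.0, limma 3.58.1 on log2(TPM + 0.1) and log2(TPM + 1) for genes whose mean was 0.1 TPM or more, other sets of libraries in the fit, a replicate block, leaving out each library, and other totals for the shares.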

Additional observations from a re-analysis of the deposited data

How the results depend on the processing

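In the comparison of neo with KO, the log2 changes of all 5 receptors kept their direction and stayed short of an adjusted p of 0.05 in all 14 alternatives, with ranges of 0.52 to 1.13 for Taar2, -0.45 to -0.01 for Taar3, 0.12 to 0.47 for Taar4, 0.30 to 0.92 for Taar5 and 0.41 to 0.61 for Taar6. The lowest adjusted p over them was 0.341 for Taar2 and 0.491 for Taar6. An unadjusted p under 0.05 was held by Taar6 or Taar2 or by neither, depending on the alternative, and by 0 of the 5 genes with DESeq2. On log2(TPM + 0.1) the median of all genes was itself 0.10.

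Over all genes, calls for neo against KO numbered 3, against 98 with DESeq2, 40 with no count filter, 1 with limma on log2(TPM + 1), 1 with the replicate block and 1 to 17 leaving out each library (17 without neo replicate 1). For KO against WT there was 1 call, against 9 and 48 with limma (pseudocounts 0.1 and 1), 2 with no filter, 6 with only those groups and 1 to 4 leaving out a library. For neo against WT there were 2, against 11 and 50 with limma, 7 with no filter and 2 to 6 leaving out a library. The cause was not tested.

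The labels do not say whether the replicate numbers pair the libraries. Deviations of same-numbered neo and KO libraries correlated at -0.10, -0.05 and 0.20 across 17638 genes. Those of differently numbered libraries ranged from -0.18 to 0.24, so the same-numbered ones did not stand out. These values cannot settle whether the libraries were paired. With the replicate block Taar2 stood at 0.83 (adjusted p = 0.609) and Taar6 at 0.49 (adjusted p = 0.628, edgeR).

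Signs that changed were those of differences near 0, none of them called. Leaving out each library gave -0.42 to 0.038 for Taar2 in KO against WT, -0.015 to 0.32 for Taar3 and -0.12 to 0.067 for Taar6 in neo against WT. For the neo minus KO share within the 5 genes it gave -4.49 to 0.592 percentage points for Taar4, -0.646 to 2.43 for Taar5 and -3.33 to 2.45 for Taar6, and by TPM the Taar6 share differed by -0.968. The cause was not tested. Taar3 had the fewest reads, 8 to 13 counts per library.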
